A study of Mus musculus with 18 samples.

Results

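The Tdpoz family of the mouse was followed through 4 of its genes, Tdpoz1, Tdpoz2, Tdpoz3 and Tdpoz4, in single blastomeres of 2-cell embryos. The members were chosen by symbol, as the probe sets listed for these genes alone in the annotation of the array, and the probe set with the highest mean was to be kept for each gene, although each of the 4 had 1 such probe set. They are 4 of 30176 genes that could be named in this way, of which 13003 lay above background, all 4 members included. The study asked whether sister blastomeres of embryos that had developed without a sperm carried like amounts of mRNA. Oocytes of B6C3F1 mice, an F1 hybrid, were activated with SrCl2 in calcium-free alpha-MEM with Latrunculin, an inhibitor of actin assembly that keeps the second polar body from leaving the egg, and were then cultured in KSOM(aa). All embryos were thus parthenogenetic, at Theiler stage 2 and a day past activation, and no fertilized or untreated embryos stood beside them. Each embryo was split at the 2-cell stage and its sister blastomeres, a and b, were lysed at once and put on 1 array each, which gave 18 blastomeres from 9 embryos (numbers 1 to 5 and 7 to 10). The only groups were therefore the embryos, each with n = 2 blastomeres. No batch was given for the arrays, and whether sisters were handled side by side was not stated, so a shared handling of sisters and a shared embryo cannot be told apart.

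Tdpoz stands for TRAF domain and POZ domain. The best known protein of this build is Spop, an adaptor whose TRAF-like (MATH) domain holds a substrate while its POZ (BTB) domain binds cullin 3, so that the substrate is brought to a ubiquitin ligase. In the mouse the Tdpoz genes lie close together among pseudogenes of the same family and are known from the oocyte and from the embryo around the 2-cell stage, the time when the zygotic genome is first switched on in bulk. The substrates of the Tdpoz proteins are not established, and no role beyond this build is assumed for any of the 4 members.

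In the RefSeq annotation of GRCm38.p6 the family formed a cluster on chromosome 3 that held 8 genes named Tdpoz. The stretch that begins with Tdpoz2 and ends with Tdpoz7 had 16 genes in a row, 7 of them protein coding and 9 pseudogenes, with Tdpoz2 beside Tdpoz1 at one end and Tdpoz4 beside Tdpoz3 in the middle. The 250 bases before the annotated transcription start were on hand for 2 of the members, Tdpoz1 and Tdpoz4, but not for Tdpoz2 and Tdpoz3. These windows, which rest on the annotated starts, are shown because they differ between the 2 members and because each has a near match among the relatives. Below are the windows of Tdpoz1 (chr3:93676284-93676533, minus strand), of Tdpoz9, its nearest match (chr3:94054886-94055135, minus strand), of the first of 2 starts of Tdpoz8 (chr3:93068573-93068822, plus strand) and of Tdpoz4 (chr3:93796148-93796397, plus strand), all from RefSeq GRCm38.p6 and 5′ to 3′, with the letters TATATAA, a variant of the core promoter box, in capitals.
Tdpoz1: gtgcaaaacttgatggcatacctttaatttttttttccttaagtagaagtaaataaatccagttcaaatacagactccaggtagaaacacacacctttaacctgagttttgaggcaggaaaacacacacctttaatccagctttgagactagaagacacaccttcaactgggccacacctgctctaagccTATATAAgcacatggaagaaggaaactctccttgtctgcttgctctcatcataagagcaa
Tdpoz9: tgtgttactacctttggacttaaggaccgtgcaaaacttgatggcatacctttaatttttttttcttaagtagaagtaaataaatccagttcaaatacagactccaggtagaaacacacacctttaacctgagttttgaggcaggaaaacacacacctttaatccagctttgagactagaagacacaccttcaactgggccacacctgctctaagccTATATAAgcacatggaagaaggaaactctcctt
Tdpoz8: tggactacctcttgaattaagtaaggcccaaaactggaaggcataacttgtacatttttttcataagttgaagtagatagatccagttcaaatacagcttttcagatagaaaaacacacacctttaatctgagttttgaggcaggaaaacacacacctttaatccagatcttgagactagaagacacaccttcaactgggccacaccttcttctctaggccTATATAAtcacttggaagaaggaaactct
Tdpoz4: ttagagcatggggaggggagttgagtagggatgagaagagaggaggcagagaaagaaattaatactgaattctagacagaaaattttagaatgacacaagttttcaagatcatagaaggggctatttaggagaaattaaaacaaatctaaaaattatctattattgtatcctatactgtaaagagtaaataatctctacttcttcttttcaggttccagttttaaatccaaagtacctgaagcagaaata

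The Tdpoz1 and Tdpoz9 windows were 99.6% identical over 223 aligned columns and shared an unbroken run of 186 bases, so they are nearly the same sequence shifted against the annotated start. The first Tdpoz8 window was 87.2% identical to that of Tdpoz1 over 226 columns. In these 3 windows the motif TATATAA began 60 (Tdpoz1), 33 (Tdpoz9) and 29 bases (Tdpoz8) before the start. The Tdpoz4 window did not hold these letters and aligned with that of Tdpoz1 over 33 columns only. It was instead 95.5% identical over 247 columns to the window of the other start of Tdpoz8, which lacks the motif too. Among all 32851 windows of this length in the table, 3.04% held TATATAA on either strand. The motif was searched after the sequences had been seen. Of the other motifs searched on both strands, GGATTA, a site of paired-like homeodomain factors, was in the windows of Tdpoz1, Tdpoz9 and the first start of Tdpoz8 (6.25% of all windows), and CCAAT was in those of Tdpoz5 and Tdpoz7 (33.8%). TATAAA, the common form of the core promoter box (12.4% of all windows), and the core of the binding site of DUX (0.177%) were found in 0 of 7 windows of the cluster, which says only that these letters are not in them.

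All values below are log2 signals as deposited, so a difference of 1 is a 2-fold difference in signal. Because probe sets differ in brightness, no gene's level was set against another's. Background was taken as 5.78, the 95th percentile of the means of 1579 chemosensory receptor genes. Among the arrays, 5b and 1a had the widest spread of their values around each gene's median (interquartile ranges of 0.83 and 0.815, against 0.545 to 0.785 on the others). The cells looked like what their labels say: 10 of 10 oocyte and early embryo markers were above background, with the egg proteins Oosp1 at 16.65 ± 0.27 and Bmp15 at 17.44 ± 0.29 (SD, n = 18), and of 9 measured markers of cumulus and granulosa cells, which surround the oocyte, 7 were below it. The other 2, Has2 at 6.43 ± 0.44 and Amhr2 at 5.90 ± 0.44, were near the threshold, and 0 of the 2 passed the test between embryos (limma, adjusted p of 0.79 and 0.68, with 0 at an unadjusted p under 0.05).

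The probe sets of the 4 Tdpoz genes read above background in every blastomere. A larger share of their variance lay between embryos than for the median gene, as was also so for a list of 2-cell activation genes. Each of the 4 members was above background in 18 of 18 blastomeres. The share of all genes with this in every blastomere was not counted, while by their mean 13003 of 30176 genes lay above background. Embryo means of 1 gene lay up to 15.78-fold apart, and embryo 7, the richest in Tdpoz1 and Tdpoz2, was the poorest in Tdpoz4.

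Tdpoz1 averaged 9.51 ± 1.10 (SD, n = 18). Its values in sisters a and b were 10.10 and 10.65 in embryo 1, 7.96 and 9.28 in embryo 2, 8.30 and 7.77 in embryo 3, 9.94 and 10.53 in embryo 4, and 8.20 and 8.25 in embryo 5. They were 11.32 and 10.43 in embryo 7, 10.19 and 10.23 in embryo 8, 9.26 and 10.31 in embryo 9, and 8.36 and 10.18 in embryo 10. Both sisters read at most 8.30 in embryos 3 and 5 and at least 9.94 in embryos 1, 4, 7 and 8, groups picked from these same values. In embryos 2, 9 and 10 a sister read between these levels. Embryo 7 had the highest mean, 10.88, and embryo 3 the lowest, 8.04, a 7.16-fold difference in signal.

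Tdpoz2 averaged 13.71 ± 1.09 (SD, n = 18). Sisters a and b read 14.26 and 13.60 in embryo 1, 12.29 and 13.67 in embryo 2, 14.04 and 14.27 in embryo 3, 14.70 and 15.54 in embryo 4, and 13.18 and 13.04 in embryo 5. The readings were 15.25 and 15.65 in embryo 7, 13.04 and 12.73 in embryo 8, 13.64 and 12.77 in embryo 9, and 11.70 and 13.49 in embryo 10. Both blastomeres of embryos 4 and 7 lay above all 14 blastomeres of the other embryos, and the lowest reading, that of 10a, had a sister well inside the range of the rest. The means of embryo 7, 15.45, and of embryo 10, 12.60, were 7.24-fold apart.

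Tdpoz3 averaged 13.12 ± 1.29 (SD, n = 18). In sisters a and b it read 12.70 and 14.29 in embryo 1, 11.55 and 12.70 in embryo 2, 13.44 and 12.42 in embryo 3, 15.07 and 13.53 in embryo 4, and 13.20 and 12.65 in embryo 5. It read 14.08 and 13.01 in embryo 7, 14.21 and 15.15 in embryo 8, 14.14 and 12.54 in embryo 9, and 10.66 and 10.74 in embryo 10. Embryo 10 stood alone at the bottom, with both sisters below all 16 other blastomeres, and embryo 8 had the highest mean, 14.68, which was 15.78-fold over the mean of embryo 10, 10.70.

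Tdpoz4 averaged 11.17 ± 1.44 (SD, n = 18), with the widest spread among the members. Its values in sisters a and b were 12.77 and 10.02 in embryo 1, 10.69 and 9.40 in embryo 2, 10.87 and 11.85 in embryo 3, 12.35 and 12.70 in embryo 4, and 9.77 and 10.51 in embryo 5. They were 8.44 and 8.75 in embryo 7, 11.68 and 12.26 in embryo 8, 13.19 and 11.44 in embryo 9, and 12.02 and 12.42 in embryo 10. Here embryo 7, which had the highest means of Tdpoz1 and Tdpoz2, lay below all 16 other blastomeres in both sisters, and embryo 10, the lowest for Tdpoz2 and Tdpoz3, was among the high ones. The mean of embryo 4, 12.53, was 15.24-fold over that of embryo 7, 8.60.

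**Figure D1:**
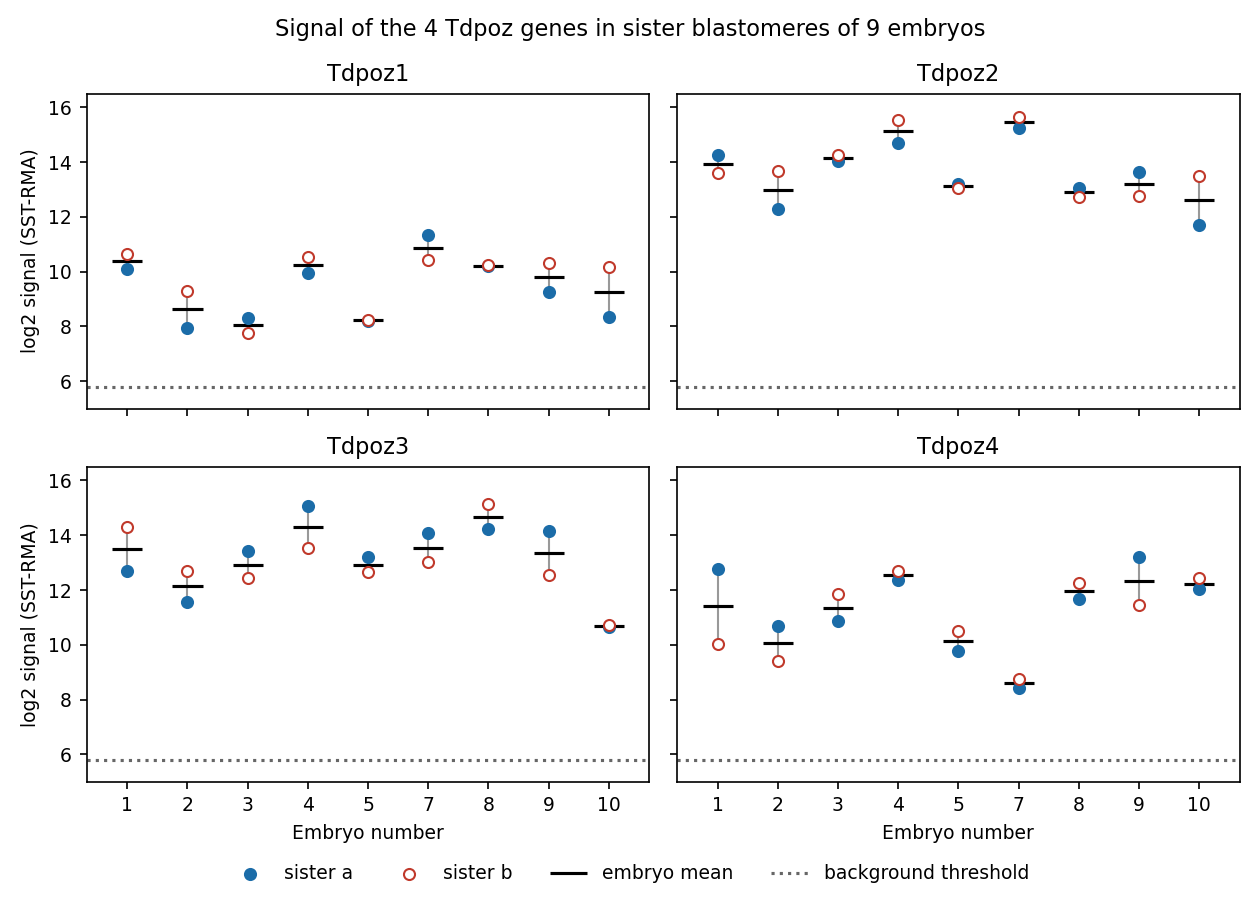
Log2 signal (SST-RMA) of Tdpoz1, Tdpoz2, Tdpoz3 and Tdpoz4 by embryo number, with filled points for sister a, open points for sister b, a bar for the embryo mean and a dotted line for the background threshold of 5.78. Embryo 7 is highest for Tdpoz1 and Tdpoz2 and lowest for Tdpoz4, and both sisters of embryo 10 are lowest for Tdpoz3.

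Whether the embryo set the level was tested by setting the spread between embryos against that between sisters. Tdpoz2 passed the test (limma moderated F test, Benjamini-Hochberg adjusted p = 0.0434 over 13003 genes) and the others did not, with adjusted p (limma) of 0.0649 for Tdpoz1, 0.066 for Tdpoz3 and 0.0632 for Tdpoz4. So 1 of 4 members was called, beside 5.71% of all genes (743 of 13003). At an unadjusted p under 0.05 it was 4 of 4 members, beside 22.5% of all genes. The 4 adjusted p lay close to the threshold on either side, and the genes are not shown to differ in this respect.

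The call of Tdpoz2 was lost in 6 of 9 other settings of the processing, with adjusted p of 0.0566 in limma without the intensity trend, 0.0636 after quantile normalization, 0.0943 with all genes tested, 0.128 in the plain analysis of variance and 0.0556 with the sister letter as a block. Of the 3 that kept it, averaging probe sets left its values as they were, since Tdpoz2 had 1 probe set of its own. Another was a probe set shared with the pseudogene Gm5773, chosen after seeing the data. The remaining one, array centring, gave an adjusted p of 0.0449 (limma). The calls also moved with single embryos and blastomeres. Without embryo 3, 4, 5, 7, 8 or 9 the adjusted p of Tdpoz2 (limma) was 0.0562, 0.0898, 0.0577, 0.162, 0.0691 or 0.0518, and it was between 0.0502 and 0.113 without any 1 of 14 single blastomeres, all but 2a, 2b, 10a and 10b. Tdpoz4 passed without embryo 1 (adjusted p, limma, 0.016), without 1a (0.0209) or without 1b (0.0177). Tdpoz1 passed without embryo 10 (adjusted p, limma, 0.0368), without 10a (0.044) or without 10b (0.0411), and Tdpoz3 without embryo 1 (0.0457). Leaving out embryo 7 moved the adjusted p (limma) of Tdpoz4 to 0.284, and leaving out embryo 10 moved that of Tdpoz3 to 0.355. Leaving out embryo 3 moved that of Tdpoz1 to 0.141. In each of these cases it was the embryo with the lowest mean. Omission of the highest embryo moved the values too. Without embryo 7, the highest for both genes, the adjusted p (limma) was 0.162 for Tdpoz2 and 0.132 for Tdpoz1. Without the arrays of 1a and 5b, those with the widest spread, the adjusted p (limma) was 0.0834 for Tdpoz2 and 0.0309 for Tdpoz4.

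The share of a gene's variance that lay between embryos, the intraclass correlation, was 0.65 for Tdpoz1, 0.67 for Tdpoz2, 0.61 for Tdpoz3 and 0.62 for Tdpoz4, against a median of 0.22 over all genes above background. These values stood at the percentiles 89.1, 90.3, 86.2 and 87.2 of those genes, in the same order. The means of the highest and lowest embryo were 2.84 (Tdpoz1), 2.86 (Tdpoz2), 3.98 (Tdpoz3) and 3.93 (Tdpoz4) log2 units apart, against a median of 1.31 for all genes. Sisters were not closer than usual, since the SD between sisters was 0.66, 0.64, 0.82 and 0.90 for Tdpoz1 to Tdpoz4, against a median of 0.47. The members thus varied more than the median gene both between embryos and between sisters.

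No embryo could be told from its neighbour in the order of the means. The 95% interval of a difference between embryo means was ± 1.36 for Tdpoz1, ± 1.24 for Tdpoz2, ± 1.58 for Tdpoz3 and ± 1.75 for Tdpoz4, and 0 of 8 neighbouring gaps exceeded it for any of the genes. The order of embryos by mean, low to high, was 3, 5, 2, 10, 9, 8, 4, 1, 7 for Tdpoz1, and 4 embryos lay below the highest by more than the interval. For Tdpoz2 it was 10, 8, 2, 5, 9, 1, 3, 4, 7, with 7 embryos below the highest by more than the interval, all but embryo 4. For Tdpoz3 the order was 10, 2, 5, 3, 9, 1, 7, 4, 8, with 4 such embryos. For Tdpoz4 it was 7, 2, 5, 3, 1, 8, 10, 9, 4, with 3 such embryos. The interval is that of 1 pair named beforehand, with no adjustment for picking the highest embryo or for the number of pairs. These counts are therefore descriptions, and of the members only Tdpoz2 passed the test over all embryos. Embryo 2 was among the lowest 3 and embryo 4 among the highest 3 for each of the members.

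Over all 9 embryos, sister blastomeres were nearer to each other than non-sisters for each of the 4 genes. Only Tdpoz2 passed at an unadjusted p under 0.05, and the direction for Tdpoz3 was lost without embryo 10. For Tdpoz2 the mean absolute log2 difference was 0.74 between sisters and 1.30 between non-sisters, that is 56.4% of it (exact permutation test over all 34459425 ways to form 9 pairs, two-sided, unadjusted p = 0.0254). It was 0.76 between sisters and 1.30 between non-sisters for Tdpoz1 (58.6%, exact permutation p = 0.0861). For Tdpoz4 it was 1.02 between sisters and 1.72 between non-sisters (59.3%, exact permutation p = 0.0506), and for Tdpoz3 it was 1.06 between sisters and 1.51 between non-sisters (70.0%, exact permutation p = 0.132). These were 4 tests on the same arrays, with no adjustment for their number. The test was run on the members only, so no share over all genes stands beside the 1 that passed or beside the common direction. The intraclass correlation was positive for the median gene too (0.22). The test uses the same values and the same contrast as the F test between embryos, so it is no separate support. The Tdpoz2 result did not pass without embryo 3 (p = 0.0556 by the exact permutation test) or embryo 7 (exact permutation p = 0.0996), Tdpoz1 passed without embryo 10 (exact permutation p = 0.0328), and Tdpoz4 passed without embryo 1 (exact permutation p = 0.0117) or embryo 9 (exact permutation p = 0.0429). Without embryo 10 the sister difference of Tdpoz3 was 101.1% of the non-sister one (exact permutation p = 1).

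Some sister pairs were nonetheless far apart, for 1 member or for several. As the higher over the lower sister, the geometric mean ratio over 9 pairs was 1.69 for Tdpoz1, 1.67 for Tdpoz2, 2.08 for Tdpoz3 and 2.02 for Tdpoz4, against a median of 1.45 over all genes above background. Such a ratio is never under 1 and grows with technical noise as well. Sisters differed by more than 2-fold in 3 pairs for Tdpoz1, 2 for Tdpoz2, 6 for Tdpoz3 and 3 for Tdpoz4, while over all genes 18.8% of the gene and pair combinations did so and the median gene did so in 1 pair. Tdpoz3 was thus among the 16.8% of genes with more than 2-fold differences in 4 or more pairs.

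The widest gap was that of Tdpoz4 in embryo 1, 6.73-fold higher in 1a than in 1b. In the same pair, Tdpoz3, the neighbouring gene, was 3.01-fold higher in 1b. In embryo 2 all 4 members were over 2-fold apart, with Tdpoz1 (2.50-fold), Tdpoz2 (2.60-fold) and Tdpoz3 (2.22-fold) higher in 2b and Tdpoz4 (2.45-fold) higher in 2a. In embryo 9 Tdpoz3 (3.03-fold) and Tdpoz4 (3.36-fold) were higher in 9a and Tdpoz1 (2.07-fold) in 9b. In embryo 10 Tdpoz1 (3.53-fold) and Tdpoz2 (3.46-fold) were higher in 10b, while Tdpoz3 differed by 1.06-fold. In embryos 1, 2, 9 and 10 a pair was thus unequal for one member and nearly equal, or unequal the other way, for another. Embryos 3, 4 and 7 were over 2-fold apart for Tdpoz3 only (2.03-fold, 2.91-fold and 2.1-fold). A single array stands behind each blastomere, so these gaps have no replicate, and array 1a is 1 of the 2 with the widest spread.

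**Figure D2:**
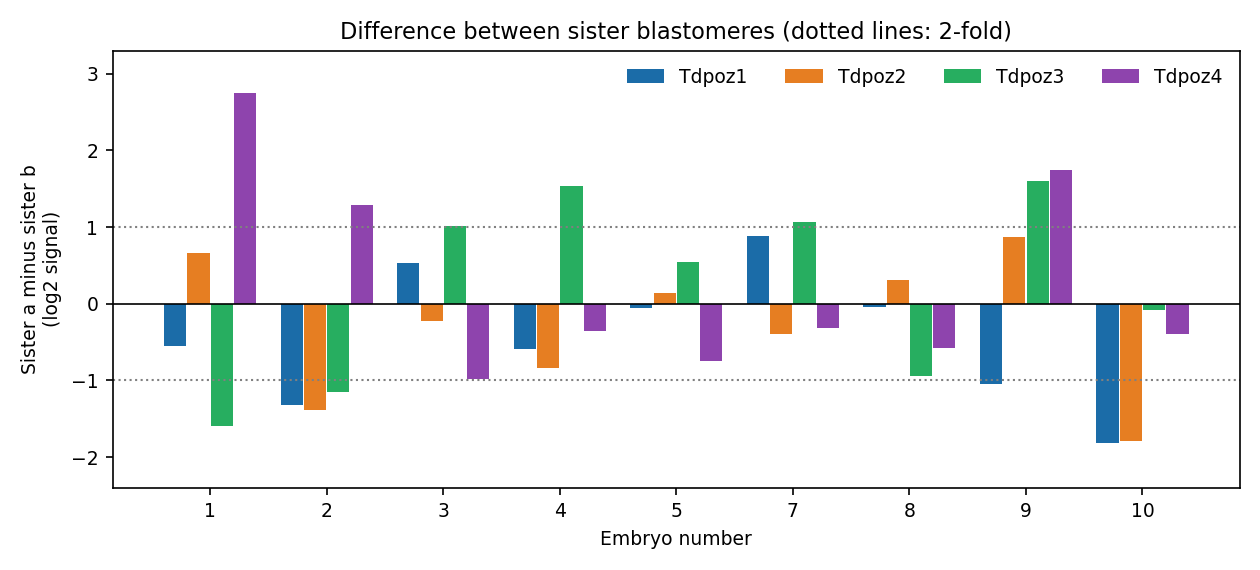
Difference in log2 signal, sister a minus sister b, for the 4 Tdpoz genes in each of 9 embryos, with dotted lines at 2-fold. The longest bar is Tdpoz4 in embryo 1, 6.73-fold higher in 1a, beside Tdpoz3, 3.01-fold higher in 1b.

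The letters a and b showed no difference past the test. The mean difference of sister a minus sister b was -0.44 ± 0.28 for Tdpoz1, -0.30 ± 0.27 for Tdpoz2, 0.22 ± 0.35 for Tdpoz3 and 0.27 ± 0.39 for Tdpoz4 (SE, n = 9 pairs), with a higher in 2, 4, 5 and 3 of 9 pairs in this order. The adjusted p (limma with the embryo as a block) was 0.98 for each, and 0 of 13003 genes (0%) were called, with 593 (4.56%) at an unadjusted p under 0.05.

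Tdpoz1, Tdpoz2 and Tdpoz3 leaned the same way across embryos and Tdpoz4 did not follow them. All correlations here are descriptions over 18 blastomeres that form 9 pairs, and the genes share the same arrays. Pearson's r over the 18 blastomeres was 0.47 between Tdpoz1 and Tdpoz2, 0.44 between Tdpoz1 and Tdpoz3, and 0.38 between Tdpoz2 and Tdpoz3. Over the 9 embryo means these were 0.47, 0.51 and 0.47, and over the 9 sister differences 0.41, 0.28 and 0.06. Tdpoz4 gave r of -0.07 with Tdpoz1, -0.21 with Tdpoz2 and -0.02 with Tdpoz3 over the blastomeres. With the spread of the arrays r lay between -0.15 (Tdpoz4) and 0.17 (Tdpoz2). With the median of the array it was 0.14 for Tdpoz1, 0.08 for Tdpoz2, -0.39 for Tdpoz3 and 0.35 for Tdpoz4, and the part of the array median in these values was not tested.

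Within the cluster, the probe set most like Tdpoz1 was that of Tdpoz9, which is annotated as protein coding and is the gene whose upstream window nearly equals that of Tdpoz1. Over 18 blastomeres r between Tdpoz1 and the first of 2 Tdpoz9 probe sets was 0.93, over 9 embryo means 0.94 and over 9 sister differences 0.88, with the same sister higher in 7 of 9 pairs. The second Tdpoz9 probe set gave 0.85, 0.87 and 0.71 with Tdpoz1. Tdpoz8, whose first window also resembles that of Tdpoz1, gave r of -0.07, 0.05 and -0.76. It was lowest in embryo 1 (7.72 in 1a and 7.77 in 1b), where Tdpoz1 was high, and its sisters read 8.76 in 7a and 11.63 in 7b where Tdpoz1 read 11.32 and 10.43. Whether the probe sets of such close relatives read each other's transcripts was not tested, so the Tdpoz1 and Tdpoz9 signals are uncertain as separate measurements, and the same holds for the other members and their relatives.

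**Figure D3:**
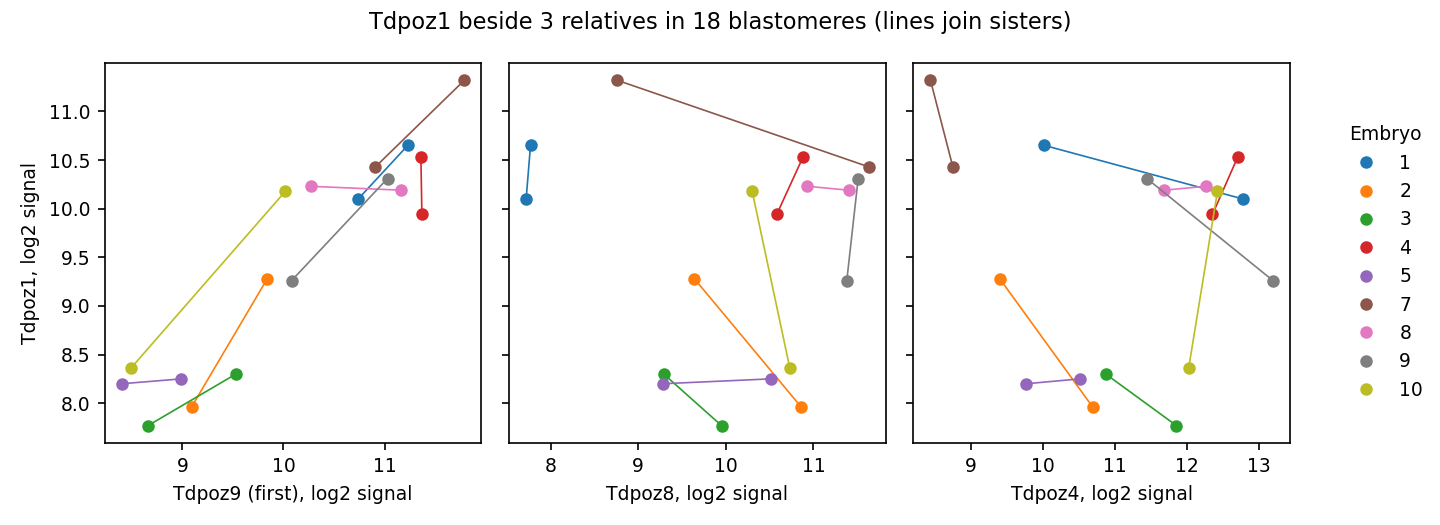
Log2 signal of Tdpoz1 (vertical) against the first Tdpoz9 probe set, Tdpoz8 and Tdpoz4 (horizontal) in 18 blastomeres, coloured by embryo, with lines joining sisters. Tdpoz1 and Tdpoz9 rise together (r = 0.93), whereas Tdpoz8 and Tdpoz4 show no such relation to Tdpoz1 (both r = -0.07).

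Tdpoz2 had a second probe set, listed for Tdpoz2 together with the pseudogene Gm5773. Its r with the Tdpoz2 probe set was 0.79 over the blastomeres, 0.81 over the embryo means and 0.71 over the sister differences. Among the probe sets of the cluster, this shared probe set was also the one most like Tdpoz3, with r of 0.64, 0.71 and 0.35. Both placed embryo 10 lowest, but the highest embryo was 4 (15.29) in the shared probe set and 7 (15.45) in that of Tdpoz2 alone. In a fit over all 21252 probe sets above background, of which 4.91% were called, the shared probe set was called (limma, adjusted p = 0.0235) and that of Tdpoz2 alone had an adjusted p of 0.0529, just above the threshold of 0.05.

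Tdpoz4 went with the pseudogenes Gm5852 and Gm9116 and with the probe sets listed for both Tdpoz5 and Tdpoz7. Over embryo means its r was 0.77 with Gm5852, 0.79 with Gm9116 and 0.69 with Tdpoz5 and Tdpoz7, while over the sister differences it was 0.31, 0.09 and -0.47. The likeness was thus closer between embryo means than between sister differences. Gm5852 and Gm9116 gave r of 0.97 with each other over the blastomeres. The 2 probe sets listed for Tdpoz5 and Tdpoz7, whose upstream windows are 99.6% identical over 250 columns, held the same values on 18 of 18 arrays and count as 1 measurement.

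Between embryos, Tdpoz5 and Tdpoz7 together were called in that fit (limma, adjusted p = 0.0222), with a mean of 12.60 in embryo 5, the lowest, and 15.22 in embryo 9, the highest. Gm5852 was called as well (limma, adjusted p = 0.0284). Gm9116 (0.0526), the Tdpoz9 probe sets (0.0529 and 0.152) and Tdpoz8 (0.128) were not (limma, adjusted p). Gm5852, Gm9116 and the Spop relatives past Tdpoz7 in the plot of the cluster were added to the family's genes after their place in the cluster had been looked up.

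**Figure D4:**
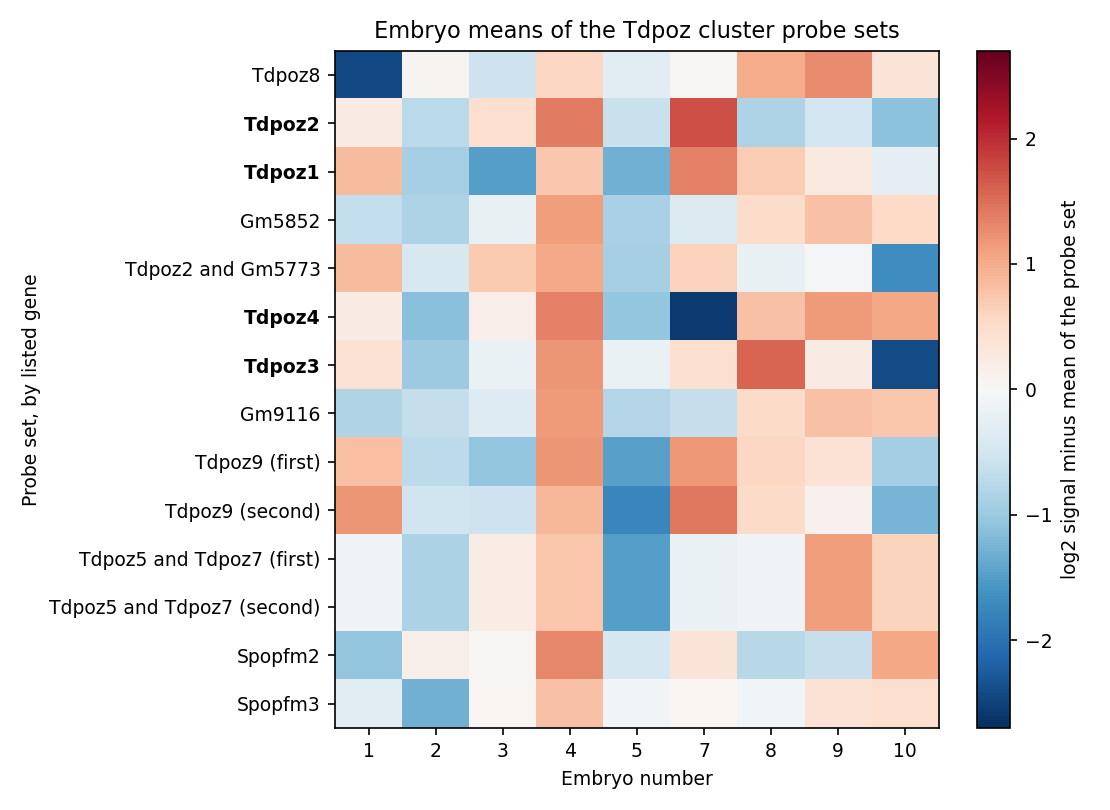
Embryo means of 14 probe sets of the Tdpoz cluster, as log2 signal minus the probe set's mean over the embryos (colour), by embryo number. Rows follow the RefSeq order of genes from top to bottom, with the 4 members in bold. The exception is the rows shared by Tdpoz5 and Tdpoz7, which stand below those of Tdpoz9 although Tdpoz9 lies between these genes. Embryo 4 is above the mean in every row and embryo 7 is dark blue for Tdpoz4 and red for Tdpoz1 and Tdpoz2.

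The genes whose pattern was most like the mean of the 4 members, each centred on its own mean, were looked for among all genes above background. The 10 with the highest r over 18 blastomeres were LOC100041034 (0.86), AA414992 (0.85), Gm11544 (0.83), Rpl9-ps6 (0.81), Prps1 (0.81), Gm5451 (0.80), Gm15753 (0.80), Gm6689 (0.80), Gm13935 (0.79) and Tdpoz9 (0.79). Prps1 makes phosphoribosyl pyrophosphate for nucleotide synthesis, and Rpl9-ps6 is named as a pseudogene of a ribosomal protein gene. With Tdpoz4 alone each of the 10 gave r between -0.03 (Tdpoz9) and 0.31 (AA414992 and Gm15753). The mean they were picked by itself gave r of 0.71 with Tdpoz1, 0.61 with Tdpoz2, 0.73 with Tdpoz3 and 0.38 with Tdpoz4. Genes picked by this mean therefore lean to the other 3 members by the way they were chosen, and no contrast is drawn from it.

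Against the Zscan4 cluster, a family of 2-cell genes that marks the 2-cell-like state of embryonic stem cells, the members gave no common relation. Over 18 blastomeres r with the mean of 6 Zscan4 genes was -0.01 for Tdpoz1, -0.51 for Tdpoz2, 0.00 for Tdpoz3 and 0.36 for Tdpoz4. Embryo 8 had the highest Zscan4 mean, 1.39 log2 units above the average embryo, and also the highest Tdpoz3. Embryo 10, the next highest at 0.97, had the lowest Tdpoz2 and Tdpoz3. Embryo 7, at -1.34, had the highest Tdpoz1 and Tdpoz2 and the lowest Tdpoz4, and embryo 3, at -1.60, had the lowest Tdpoz1. Of the Zscan4 genes 6 of 6 were called between embryos (limma), and of 27 genes of the 2-cell activation list above background 14 were (51.9%), the 6 Zscan4 genes included, beside 1 of 4 Tdpoz genes and 5.71% of all genes. All 6 Zscan4 genes were highest in embryo 8, and whether their probe sets read each other's transcripts was not tested, so their calls may not be separate results. The median intraclass correlation was 0.81 for the Zscan4 genes and 0.69 for that list, beside 0.64 for the 4 members. A high share of variance between embryos was thus not particular to the Tdpoz genes.

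Genes of the cullin 3 ligase and of the NEDD8 pathway, which activates cullins, were called about as often as other genes at the unadjusted threshold. Of 10 such genes measured, Spop and Spopl among them and all above background, 2 were called (20%, beside 5.71% of all genes). The same 2 (20%, beside 22.5%) had an unadjusted p under 0.05. Cul3, the scaffold of the ligase, had a mean of 12.70 in embryo 7 and 10.75 in embryo 8 (limma, adjusted p = 0.0307). Nedd8, the ubiquitin-like protein that is attached to cullins and activates them, had a mean of 13.63 in embryo 5 and 11.42 in embryo 10 (limma, adjusted p = 0.00325). The other 8, among them Uba3, Nae1 and Ube2f of the NEDD8 pathway and Cand1, an exchange factor of cullin ligases, did not pass. Rbx1 and Ube2m were not measured by a probe set of their own.

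Genes with the same kind of substrate domain lie outside the cluster too. Of 6 MATH-domain genes above background (Spop, Spopl, Traf4, Usp7, Trim37 and Mep1b) 0 were called by limma (beside 5.71% of all genes), and 0 had an unadjusted p under 0.05 (beside 22.5%), counts too small to set this list apart from other genes. Their median intraclass correlation was -0.09 and the median distance between the highest and lowest embryo 0.73 log2 units, beside 0.64 and 3.40 for the 4 members and 0.22 and 1.31 for all genes. Spop read 10.46 ± 0.63 (SD, n = 18) and had an adjusted p of 0.897 (limma). Spopl, its close relative, read 6.29 ± 0.40 with an adjusted p of 0.655 (limma).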

How the data were processed

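Biotinylated targets of single blastomeres were hybridised to Affymetrix Mouse Transcriptome Array 1.0. The deposited values were log2 signals, 1 per probe set and array, which the authors had made in Affymetrix Expression Console by signal space transformation and robust multiarray averaging (SST-RMA), a method that corrects background and normalizes the arrays. They ranged from 2.14 to 19.41, with array medians of 4.86 to 5.26. The normalization makes arrays alike, so total RNA per blastomere cannot be seen. For the probe sets a genome build was not given in the sources used here.

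Of 65956 probe sets, 30638 were listed with 1 gene symbol, 2176 with several and 33142 with none. Symbols were taken from the platform annotation and checked by gene identifier against RefSeq GRCm38.p6, which changed 0 of the 22787 that carried an identifier. Spopfm3 carried none and is listed as Gm5286, its RefSeq synonym. For 354 genes with several probe sets the one with the highest mean was kept. Background was the 95th percentile of the chemosensory receptors' means, so that 79 of 1579 lay above it. All 18 columns of the table were mapped to labelled blastomeres, with none left over.

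Embryos were compared in limma 3.58.1 (R 4.3.3), with the embryo as a factor, an intensity trend, the moderated F test and Benjamini-Hochberg adjustment at 0.05. Sisters were set against non-sisters by an exact two-sided permutation test with numba 0.67.0, whose smallest p is 5.8e-08. Windows were aligned locally with Biopython 1.88, and figures were drawn with matplotlib 3.10.9 (Python 3.11.15, numpy 2.4.6, pandas 2.3.3). The scripts were tested on simulated data. Each blastomere was 1 array, and p-values measure only the spread between these blastomeres. The number of arrays limits the precision.

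The members, the lists and the tests were chosen with earlier results of these data known. Named were the members, other genes with a Tdpoz symbol, the Zscan4 genes, the markers and lists given, and the 10 genes most correlated with the mean of the centred members. Relatives by protein identity, also part of the rule, were not used here, for want of a protein table. Alternatives were array centring, quantile normalization, no filter on dim genes, no trend, plain analysis of variance, the sister letter as a block, the mean of probe sets, squared differences, and each embryo or blastomere left out.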

Additional observations from a re-analysis of the deposited data

How the results depend on the processing

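The members' calls were close to the threshold, so several moved. The adjusted p of Tdpoz2 between embryos was 0.0636 after quantile normalization, 0.0943 with all genes tested, 0.0566 in limma without the intensity trend, 0.128 in the plain analysis of variance, 0.0834 without 1a and 5b, and 0.0205 to 0.162 with an embryo or blastomere left out. With the sister letter as a replicate block it was 0.0556, and the block changed no call of the other 3 members, while 572 genes were called in all. The letters only name sisters and do not pair blastomeres across embryos. Through the probe set shared with Gm5773 it was 0.0191. Of 9 such settings 3 kept the call, namely array centring (limma, adjusted p = 0.0449), the mean of probe sets and the shared probe set. Of the omissions, 3 of 9 of an embryo and 4 of 18 of a blastomere kept it. For the others, omissions gave 0.0368 to 0.141 (Tdpoz1), 0.0457 to 0.355 (Tdpoz3) and 0.016 to 0.284 (Tdpoz4, 0.0309 without 1a and 5b). The number of genes called, 743, was 403 with all genes tested, 354 in the analysis of variance and 423 to 893 with an embryo or blastomere left out, being 423, 477 and 469 without embryos 7, 8 and 10 and 439 to 495 without 3b, 7b, 8a, 8b, 9b, 10a or 10b. For sisters against non-sisters, the exact permutation p of Tdpoz1 was 0.0475 after quantile normalization, 0.0386 for squared differences and 0.0328 to 0.213 with an embryo left out, and that of Tdpoz4 was 0.0435 after quantile normalization and 0.0117 to 0.376 with an embryo left out. It was 0.0131 to 0.0996 for Tdpoz2 and 0.082 to 1 for Tdpoz3 with an embryo left out, the value of 1 being that without embryo 10, where sisters were no nearer than non-sisters. The exclusion of 1a and 5b and the shared probe set were chosen after seeing the data. Averaging probe sets left each member at its own values, and the cause of the moves was not tested. All 4 signals were above background in every blastomere, and each blastomere was measured on 1 array.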

Other observations

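Past Tdpoz7 in the RefSeq order lie Spopfm2, a protein coding relative of Spop, and the pseudogene Spopfm3. The Spopfm2 probe set averaged 9.62 ± 1.33 (SD, n = 18) and showed no difference between embryos past the threshold in the fit over all probe sets (limma, adjusted p = 0.792). Its sisters were 3.66-fold apart as a geometric mean over 9 pairs, against 2.08-fold for Tdpoz3, the widest among the 4 members. Over the sister differences Spopfm2 gave r of 0.67 with Tdpoz2 and 0.67 with Tdpoz4, with the same sister higher in 7 and 8 of 9 pairs, and -0.40 with Tdpoz3. The Spopfm3 probe set, listed in the annotation under its older symbol Gm5286, averaged 12.56 ± 0.65 with an adjusted p of 0.138 (limma) and a geometric mean ratio of 1.44 between sisters. These are descriptions of genes chosen for their place in the cluster, over arrays that all the genes share.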
